A study of Mus musculus with 4 samples.

Results

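Nonclassical monocytes of mouse peripheral blood were chosen by their transcript counts, as cells with little Ly6c2 and with transcripts of Ace, Treml4, Cd300e or Ear2. A cell was a member if it held at least 5 UMIs (unique molecular identifiers, 1 for each captured transcript) of Lyz2, at most 1 of Ly6c2, at least 1 in the sum of Ace, Treml4, Cd300e and Ear2, at most 1 of Cd209a, at most 4 of the C1q genes, at most 2 of Cd79a and at most 1 of the Cd3 genes. This rule found 452 of 14588 cells, 73 in young sample 1, 137 in young sample 2, 173 in old sample 1 and 69 in old sample 2. The blood came from untreated C57BL/6 female mice aged 4 months (young) or 24 months (old), with 2 samples per age of mononuclear cells, each pooled from 2 mice. Single mice cannot be followed in a pool. For the ages, p-values measure the spread between pools. Where subsets of the same samples were compared, they measure how the difference between subsets varied from pool to pool. Classical monocytes, used for comparison, were cells with at least 5 UMIs of Ly6c2 under the same limits on the other genes (431 cells), and Cd209a-positive cells had at least 2 UMIs of Cd209a (40 cells).

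Nonclassical monocytes patrol the inner wall of small vessels, to which they hold by the integrin LFA-1 and the fractalkine receptor CX3CR1. They arise largely from classical Ly6C-high monocytes, which leave the marrow through the receptor CCR2 and enter inflamed tissue, and the conversion needs the nuclear receptor NR4A1. They live longer in blood than classical monocytes and take up debris and lipid from the endothelium. In blood, fewer cells of a type and less RNA per cell cannot be told apart from summed counts alone, so levels are given as CPM, the UMIs of a gene per 1000000 UMIs outside the haemoglobin genes.

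The members held 192457, 374069, 471221 and 234974 UMIs in young samples 1 and 2 and old samples 1 and 2, with medians of 2150, 2288, 2417 and 2712 UMIs per cell. The samples of each age were aggregated with Cell Ranger, and whether read depth was equalised in that step is not stated. Classical monocytes were deeper, with medians of 4024.5, 4309, 4877 and 4922 UMIs per cell, and the members therefore stand on fewer UMIs per cell in every sample. Of the 4 genes that select members, 1 was detected in 78 cells, 2 in 130, 3 in 150 and all 4 in 94. In the whole series 216 cells had a barcode that another library also held, 4 of them members, and 0 members shared a barcode with another member.

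The genes of the rule describe the members and were not tested. Ace, which encodes angiotensin-converting enzyme, stood at 680, 655, 618 and 528 CPM in young samples 1 and 2 and old samples 1 and 2. Treml4, a receptor that binds dying cells, stood at 385, 313, 435 and 328 CPM. Cd300e stood at 211, 236, 310 and 264 CPM and Ear2, a ribonuclease of the eosinophil family, at 907, 859, 1231 and 1242 CPM. Ly6c2 lay between 36.9 and 49.8 CPM in members and between 3242 and 4072 CPM in classical monocytes. At the edge of the rule, the 54 members with 1 UMI of Ly6c2 of all samples pooled had 568 CPM of Itgal and 318 CPM of Ccr2, against 451 and 616 CPM in the 29 cells with 2 UMIs of Ly6c2 that met the other limits. The 38 members with 1 UMI in the sum of the 4 genes had 233 CPM of Itgal and 508 CPM of Ccr2, against 122 and 880 CPM in the 62 cells with none. The 398 members with no Ly6c2 UMI had 791 CPM of Itgal and 141 CPM of Ccr2, so that members near either limit had less Itgal and more Ccr2 than these.

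RNA of other blood cells was present in members and differed between samples. Haemoglobin genes took 1.43% and 6.95% of the summed UMIs of young members and 6.23% and 12.98% of those of old members. In these sums old sample 2 was highest and young sample 1 lowest. The medians per cell were 0.519% and 3.01% in young and 2.27% and 1.29% in old samples, so that young sample 2 was highest. Haemoglobin took over 10% of the UMIs in 1 of 73 and 6 of 137 young and in 7 of 173 and 7 of 69 old members. A UMI of the platelet genes Ppbp or Pf4 was found in 0 of 73 and 0 of 137 young members and in 34.1% and 21.7% of old members, against 0.308% and 1.58% of all young and 43.1% and 34.0% of all old cells. All 4 platelet markers were at 0 in young members and summed to 398 and 152 CPM in old members. The 3 measured B cell markers outside the rule summed to between 142 and 267 CPM, the 2 T cell markers to between 2.26 and 42.2 CPM, the 4 natural killer cell markers to between 4.89 and 77.6 CPM and the 6 neutrophil markers to between 47.4 and 70.2 CPM. Of the 4 macrophage markers, Mertk and Cd5l had 0 UMIs, Vcam1 had 1 and Adgre1, which encodes F4/80 and is also made by monocytes, stood at 137, 109, 158 and 132 CPM in members, higher than in classical monocytes (log2 0.57, adjusted p = 0.0386, called in 6 of 15 alternatives). The defining genes Cxcr2, Retnlg, Ms4a2 and Ncr1 had 0 UMIs in members of every sample, the 5 dendritic cell markers summed to at most 14.7 CPM and the 4 basophil markers to at most 6.79 CPM. The part of this RNA in the results below was not tested, and for some of them values without such cells are given.

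**Figure D1:**
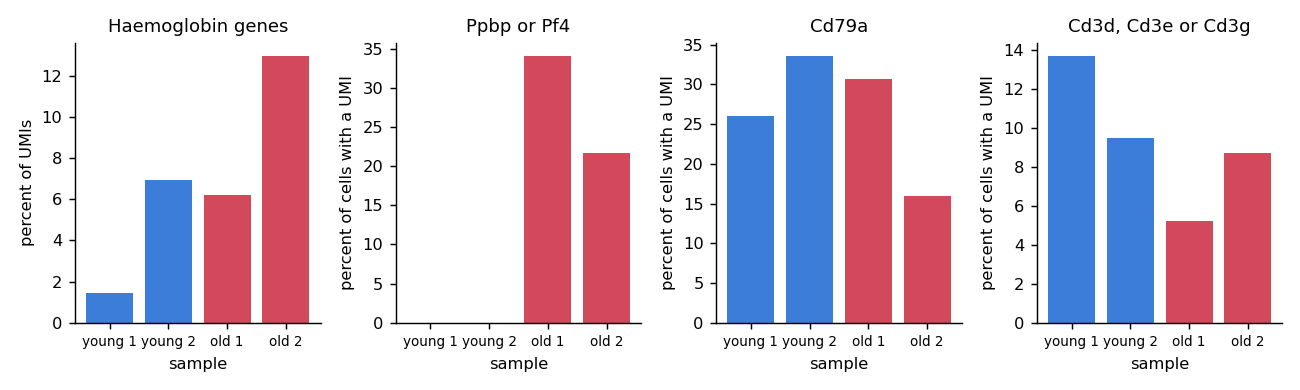
RNA of other blood cells in nonclassical monocytes, as the percent of UMIs from haemoglobin genes and the percent of cells with a UMI of the platelet genes Ppbp or Pf4, of the B cell gene Cd79a or of a Cd3 gene, with 1 bar per sample (blue young, red old). Platelet transcripts were found in 34.1% and 21.7% of old members and in 0 young ones, and Cd79a and the Cd3 genes were limited by the rule.

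All 12 nonclassical markers passed the test as higher in members than in classical monocytes, where 16.5% of the 4222 tested genes did. All 8 classical markers passed it as lower, where 13.3% of tested genes did. Members also held the markers common to both subsets: Csf1r, the receptor on which monocyte survival depends, stood between 698 and 867 CPM in members and between 319 and 366 CPM in classical monocytes, with no overlap. Fcer1g, a signalling chain of Fc receptors, stood between 5123 and 6279 CPM in members. The cell cycle gene Mki67 and the senescence gene Cdkn2a had a UMI in 0 of 452 members, which allows a share of up to 0.664% of cells with a UMI. Cdkn1a, another senescence-associated gene, stood at 52.7, 57.5, 47.5 and 83.1 CPM, and its difference with age did not pass the test (log2 fold change 0.12 ± 0.37 SE, edgeR adjusted p = 0.977).

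Members made up 1.87% (95% exact binomial interval 1.47 to 2.35) and 3.55% (2.99 to 4.19) of young blood cells and 3.73% (3.20 to 4.31) and 3.16% (2.46 to 3.98) of old blood cells. The ages overlapped, with young sample 1 below the other samples. The mean was 2.71% ± 1.19 (SD, n = 2) in young and 3.44% ± 0.404 (SD, n = 2) in old samples, a difference of 0.730 percentage points (exact permutation test, two-sided, p = 0.667). Intervals cover counting error only. Without young sample 1 the difference was -0.111 points. With members holding a platelet, B or T cell UMI left out but all cells kept in the denominator, it was -0.00642 points. Leaving cells with a B or T cell UMI out of both members and denominator gave a difference of 3.67 points. The shares were then 21.1% and 26.3% in young and 32.8% and 21.9% in old samples, so the ages overlapped.

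Among nonclassical and classical monocytes together, members made up 73 of 103 (70.9%) and 137 of 169 cells (81.1%) in young and 173 of 420 (41.2%) and 69 of 191 cells (36.1%) in old samples. Both old samples lay below both young samples. The means were 76.0% ± 7.21 (SD, n = 2) and 38.7% ± 3.58 (SD, n = 2), a difference of -37.3 points (exact permutation test, two-sided, p = 0.33, the smallest p that 2 against 2 samples allow). Since the classical gate rests on a count of Ly6c2 and old cells were deeper, cells were also thinned to 1000 UMIs each, after which members made up 89.6% and 92.7% of the monocytes of young and 63.3% and 69.1% of those of old samples (difference -24.9 points). Before thinning, classical cells numbered 30 in young sample 1, 32 in young sample 2, 247 in old sample 1 and 122 in old sample 2. Without cells of either subset holding a platelet, B or T cell UMI, and unthinned, the difference was -28.1 points. Members were then 73.5% and 81.4% in young and 57.1% and 41.5% in old samples.

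**Figure D2:**
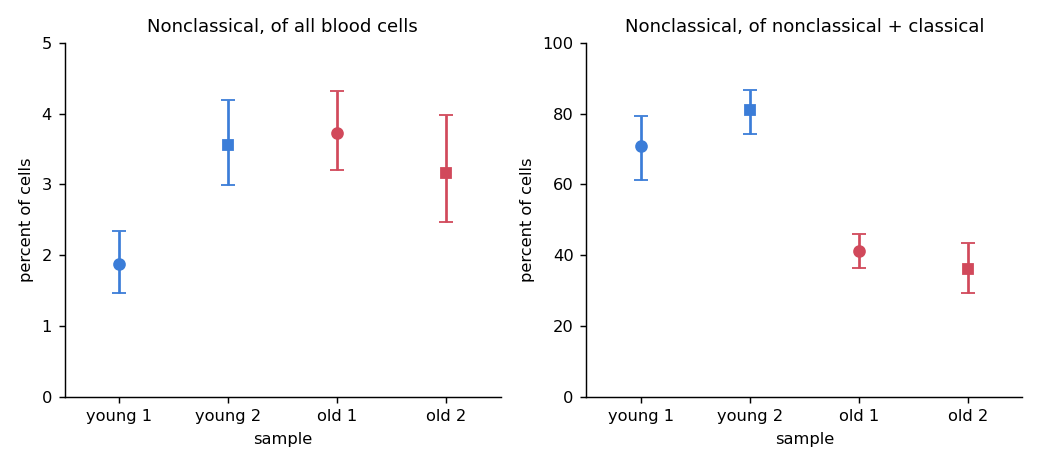
Percent of all blood cells (left) and of nonclassical plus classical monocytes (right) that were nonclassical, by sample (blue young, red old), with 95% exact binomial intervals as bars. The ages overlap on the left, and on the right young samples sit at 70.9% and 81.1% and old samples at 41.2% and 36.1%.

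Nonclassical and classical monocytes of the same samples were compared with edgeR's quasi-likelihood test on UMIs summed per sample and subset, with the sample as a block and the rule's 14 genes left out. Of 4222 genes, 1258 (29.8%) were called at an adjusted p under 0.05, 697 (16.5%) higher and 561 (13.3%) lower in nonclassical monocytes. In cells of 2000 to 4000 UMIs, a window added after the depths were seen, 291 were higher and 158 lower, and without cells holding a platelet, B or T cell UMI 403 were higher and 270 lower. The cells were sorted by their UMIs of those 14 genes, so genes that vary with them are not independent of the rule, and classical monocytes were deeper in every sample.

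Transcription factors of the subset were higher in members. Nr4a1 (chr15:101254269-101274795, plus strand, GRCm38), which nonclassical monocytes need to form, stood at 548, 405, 446 and 367 CPM in young samples 1 and 2 and old samples 1 and 2, and at 125, 66.9, 66.9 and 94.6 CPM in classical monocytes, so that the subsets did not overlap (log2 fold change 2.43 ± 0.17 SE, adjusted p = 7.49e-15, called in 15 of 15 alternatives). Cebpb, a transcription factor that these cells need, stood between 225 and 282 CPM against 50.2 to 76.0 CPM in classical monocytes. Klf2, which restrains activation in myeloid and endothelial cells, stood at 1555, 1284, 783 and 1448 CPM against 1000, 542, 331 and 755 CPM, and was lowest in old sample 1 in both subsets. Pou2f2, Klf4 and Hes1, the last a target of Notch signalling, which promotes the conversion, were also called higher (log2 fold changes 1.96, 1.88 and 2.85).

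Genes of adhesion and patrolling were higher as well. Itgal, the alpha chain of LFA-1, stood at 775, 770, 760.5 and 714 CPM against 134, 111, 92.8 and 70.9 CPM in classical monocytes (log2 3.04). Itgax, an integrin alpha chain also used to mark dendritic cells, stood at 47.4, 77.6, 86.0 and 117 CPM against 0, 7.43, 0.836 and 3.38 CPM (log2 fold change 5.29 ± 0.44 SE, edgeR adjusted p = 8.26e-13). Cx3cr1 (chr9:119901616-120069879, minus strand) stood at 290, 259, 299 and 264 CPM against 161, 163, 123 and 132 CPM, and its log2 fold change of 1.06 was one of the smaller ones among the markers. Spn, the sialoglycoprotein CD43 used to sort these cells, had a log2 fold change of 3.04, Pecam1 of 2.70 and Ceacam1 of 2.08. Of the 32 genes listed for nonclassical identity and adhesion, 31 were called higher and 0 lower (median log2 2.26, against 0.01 over all tested genes), and 31 were called in the window of 2000 to 4000 UMIs. Selplg, the ligand of P-selectin, was the exception, with a log2 fold change of -0.21.

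The genes with the largest rises belonged to several functions. Lilra5 (chr7:4237754-4243463, plus strand), an activating receptor of the leukocyte immunoglobulin-like family, had 111 UMIs in members and 1 in classical monocytes, a ratio of 191 per UMI outside haemoglobin (95% exact interval 33.5 to 7603, counting error only). Fabp4, a carrier of fatty acids, stood at 327, 284, 312 and 249 CPM against 35.7, 0, 1.67 and 0 CPM (log2 6.42 ± 0.37 SE, adjusted p = 1.56e-16). Cd36 (chr5:17781690-17888801, minus strand), a scavenger receptor for lipids and dying cells, stood at 385, 425, 274 and 337 CPM against 0, 0, 5.02 and 10.1 CPM (log2 5.66). No sample of one subset reached a value of the other for any of these genes. Tgm2, a transglutaminase, had a log2 fold change of 5.30, Dusp16, a phosphatase of MAP kinases, of 5.46, the ion transporter gene Slc12a2 of 5.44, the enolase gene Eno3 of 5.29 and G0s2, an inhibitor of lipolysis, of 4.87.

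**Figure D3:**
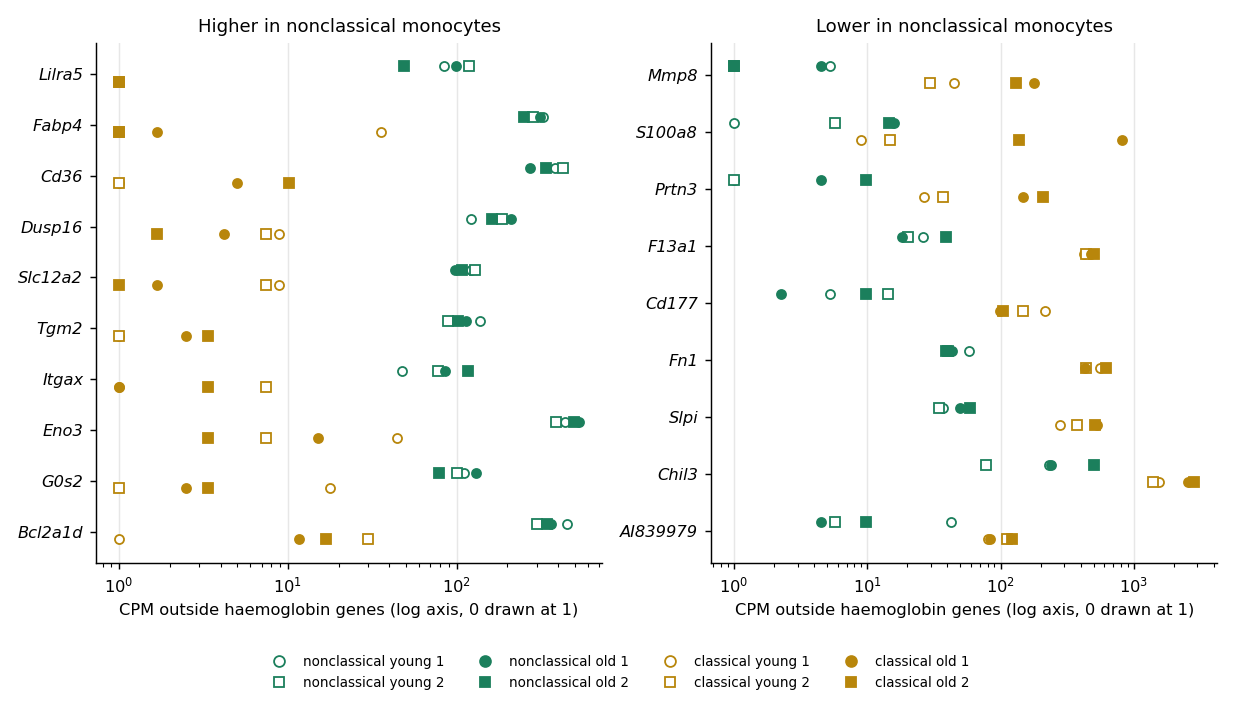
Level in CPM (log axis, values of 0 drawn at 1) of the 10 genes with the largest rise (left) and 9 of the 10 with the largest fall (right) in nonclassical (green) against classical monocytes (gold), with 1 point per sample (open young, filled old, circle sample 1, square sample 2). Within each sample the subsets are apart for all genes shown, while S100a8 of classical monocytes lies at 8.93 and 14.9 CPM in young samples, within the range of members, and at 808 and 138 CPM in old ones.

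Lipid genes followed Fabp4 and Cd36. Of 15 tested lipid handling genes, 9 were called higher and 2 lower (median log2 0.80). Pparg, a lipid-sensing nuclear receptor of which Fabp4 and Cd36 are known targets, stood at 89.6, 46.0, 74.7 and 113 CPM against 8.93, 7.43, 3.34 and 5.07 CPM, and Pltp, a phospholipid transfer protein, had a log2 fold change of 2.63. Apoe, the main apolipoprotein of macrophages, stood at 6315, 4876, 4126 and 5218 CPM against 4734, 3149, 1310 and 2068 CPM. The cholesterol exporter gene Abcg1 was also higher (log2 1.56), whereas Lpl, which releases fatty acids from lipoproteins, and Alox5ap, which serves leukotriene synthesis, were lower (log2 -1.42 and -0.58).

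Survival genes differed by member. Bcl2, which blocks mitochondrial apoptosis, stood at 127, 152, 143 and 132 CPM against 8.93, 7.43, 26.8 and 5.07 CPM (log2 3.06 ± 0.30 SE, adjusted p = 7.71e-11). Bcl2a1d, a further anti-apoptotic gene, stood at 453, 302, 364 and 342 CPM against 0, 29.7, 11.7 and 16.9 CPM (log2 4.68). Bcl2a1a and Bcl2a1b had log2 fold changes of 3.63 and 4.29, and since these genes are near-identical copies, their counts may be split among them and the value of each is uncertain. The pro-apoptotic genes Bad and Bid were called lower (log2 -1.29 and -0.99). Over the 21 survival and apoptosis genes, 7 were called higher and 3 lower (median log2 0.42).

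Receptors for antibody and their relatives split between the subsets. Fcgr4 (chr1:171018920-171029761, plus strand), the activating Fc receptor that marks nonclassical monocytes, stood at 269, 356, 416 and 543 CPM against 26.8, 29.7, 28.4 and 60.8 CPM (log2 3.55 ± 0.19 SE, adjusted p = 1.87e-18). Cd300ld, C5ar1, the receptor of complement C5a, and Trem3 were also higher (log2 3.72, 1.84 and 1.86). Fcgr1, the high-affinity Fc receptor, stood at 42.2, 25.9, 47.5 and 58.7 CPM against 143, 119, 193 and 193 CPM (log2 -1.89), and Fcgr3, Fcgr2b, Msr1 and Cd93 were also lower. Of 26 Fc receptor, complement and phagocytosis genes, 8 were higher and 14 lower, against 8 and 8 without cells holding a platelet, B or T cell UMI. Lysosomal genes were more often lower than higher, with 12 of 34 called lower and 3 higher, among them Ctsc (log2 -1.78), Npc2 (log2 -1.47) and, among those higher, Ctsb (log2 1.19) and the cathepsin inhibitor Cst3 (log2 1.26). In the window of 2000 to 4000 UMIs 5 lysosomal genes were lower and 2 higher. Without cells holding a platelet, B or T cell UMI 7 were lower and 2 higher.

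Of the MHC class I list, 7 of 21 genes were higher and 2 lower. H2-K1, which presents peptides to Cd8 T cells, stood at 1887, 1853, 1743 and 1726 CPM against 866, 928, 773 and 711 CPM (log2 1.16 ± 0.10 SE, adjusted p = 3.09e-12). H2-Q6 and H2-Q7 had log2 fold changes of 2.93 and 1.76 and are close paralogs whose reads can be confused. Of 11 class II genes, 4 were higher and 3 lower. The class II chains H2-Aa, H2-Ab1 and H2-Eb1 and the invariant chain Cd74 were higher (log2 0.81, 0.77, 0.93 and 0.87), whereas H2-DMa and H2-DMb1, which load peptide, and Ifi30, a thiol reductase that prepares antigens, were lower (log2 -0.86, -0.61 and -1.97). These chains are abundant in B cells, whose RNA was present in members. The ratio of Cd74 to Cd79b UMIs was 23.8, 31.3, 22.1 and 98.4 in members and 11.4, 12.2, 8.52 and 12.3 in B cells (at least 3 UMIs of Cd79a) of the same samples. In classical monocytes it was 13.8, 28.5, 17.6 and 29.2. Members held 31, 59, 76 and 15 Cd79b UMIs. For H2-Aa the ratio was 2.65, 5.66, 3.72 and 15.1 in members and 2.37, 2.57, 1.87 and 2.79 in B cells. For H2-Aa, H2-Ab1 and H2-Eb1, members lay closest to B cells in young sample 1. The opposite limits on Cd79a shape these ratios, and the part of B cell RNA was not tested. Without cells holding a platelet, B or T cell UMI 2 class II genes were called higher and 2 lower. In the window of 2000 to 4000 UMIs 1 class II gene was called higher and 2 lower.

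Interferon-response genes were lower in members as a group. Of 48 tested, 33 were called lower and 1, Irf1, higher (median log2 -1.07, against 0.01 over all genes), and 16 were called lower in the window of 2000 to 4000 UMIs. Isg15, a ubiquitin-like protein induced by interferon, stood at 58.0, 57.5, 58.8 and 63.6 CPM against 277, 259.96, 288 and 214 CPM, so that all samples of a subset lay close together (log2 -2.12 ± 0.19 SE, adjusted p = 8.78e-12). Ifit1 and Ifit3, which act against viral RNA, fell by 2.49 and 2.44 on the log2 scale, and Ifit3 has a close copy with which reads can be shared. Usp18, which removes Isg15 from proteins, fell by 2.97, and Slfn1 by 2.23 (26.4, 54.6, 72.4 and 24.5 CPM against 214, 230, 290.0 and 181 CPM). Ifitm3, an abundant member of the list that hinders viral entry, stood between 5854 and 6152 CPM against 7726 to 9111 CPM (log2 -0.50).

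The interferon-stimulated response element, taken as GAAA, any 2 bases and GAAA again on either strand, was found in the RefSeq promoters (250 bases before to 50 after the start, GRCm38.p6) of 17 of the 27 genes with a promoter entry among the 33 called lower (63%), against 1079 of 27025 genes (3.99%) in the whole table and 165 of 3286 tested genes (5.02%). The list holds genes known for this element, so the share describes the list, not the subset. Of the genes called over 4-fold higher in members, 4 of 79 (5.06%) held it. The 3 genes with the element that fell most are shown with Fcgr4, a gene higher in members that also holds it. The 160 bases before the start are chr19:34640729-34640888 (plus strand) for Ifit1, chr19:34583369-34583528 (plus) for Ifit3, chr4:156200819-156200978 (minus) for Isg15 and chr1:171018766-171018925 (plus) for Fcgr4, printed 5′ to 3′ on the gene's strand with the matches in capitals. Matches on the other strand begin with TTTC, and the 3 matches of Isg15 overlap.
Ifit1: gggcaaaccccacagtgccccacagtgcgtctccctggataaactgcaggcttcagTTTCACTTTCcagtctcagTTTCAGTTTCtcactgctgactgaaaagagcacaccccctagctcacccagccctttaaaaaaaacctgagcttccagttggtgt
Ifit3: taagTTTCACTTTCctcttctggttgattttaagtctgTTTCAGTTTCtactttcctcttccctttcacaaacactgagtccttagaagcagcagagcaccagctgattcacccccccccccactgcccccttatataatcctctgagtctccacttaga
Isg15: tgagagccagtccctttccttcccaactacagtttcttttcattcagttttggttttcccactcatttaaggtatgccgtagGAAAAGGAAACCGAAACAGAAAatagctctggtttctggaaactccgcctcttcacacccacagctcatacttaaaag
Fcgr4: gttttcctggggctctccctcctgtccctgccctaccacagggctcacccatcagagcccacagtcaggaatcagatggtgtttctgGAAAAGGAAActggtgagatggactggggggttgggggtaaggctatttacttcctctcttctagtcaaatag
The element begins 104 and 85 bases before the start in Ifit1, 156 and 122 in Ifit3, 78, 72 and 66 in Isg15 and 73 in Fcgr4. Of 9 other motifs searched, TTNCNNGAA, the STAT site, was found in 11 of these 27 promoters (40.7%) against 14.8% of the whole table, and AAAGGTCA, to which NR4A1 binds, in 0 of the 79 promoters of genes over 4-fold higher in members against 1.7% of the whole table. A match is a sequence feature and says nothing of binding in these cells, nor does its absence.

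Inflammatory genes went both ways. Il1b, the cytokine interleukin-1 beta, stood at 116, 181, 109 and 142 CPM against 17.9, 29.7, 35.1 and 21.9 CPM (log2 2.14 ± 0.25 SE, adjusted p = 6.28e-09), and the NF-kB genes Nfkbiz, Nfkb1 and Nfkbia were higher (log2 2.47, 0.98 and 0.64). The chemokine genes Ccl9 and Ccl6 were lower (log2 -1.57 and -0.63). Of 22 genes of this list 8 were higher and 4 lower, and of 20 immediate early genes 11 were higher and 2 lower. Dusp5, a phosphatase of ERK, had a log2 fold change of 3.74, whereas Fos stood at 148, 253, 199 and 142 CPM against 697, 698, 511 and 564 CPM (log2 -1.66).

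Of 22 tested classical monocyte genes, 20 were called lower and 0 higher (median log2 -2.25). Ccr2, by which monocytes leave the marrow, stood at 148, 132, 158 and 264 CPM against 1179, 1025, 1493 and 1493 CPM. F13a1, a clotting factor chain made by classical monocytes, fell by 4.25, Fn1, fibronectin, by 3.45, and the chitinase-like gene Chil3 by 3.10. The protease inhibitor gene Slpi was also lower (log2 -3.28). The granule genes Prtn3 (log2 -4.76) and Mmp8 (3 UMIs in members and 300 in classical monocytes, 58.2-fold, exact interval 19.7 to 284) and the neutrophil-shared genes Cd177 and S100a8 were also lower. S100a8 stood at 808 CPM in classical monocytes of old sample 1, where S100a9 reached 526 CPM, and at 8.93, 14.9 and 138 CPM in the other samples. AI839979 was lower too (log2 -3.05).

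Cytoskeletal and calcium-binding genes were lower in members, with 17 of 25 S100, annexin and actin genes called lower and 2 higher (median log2 -1.17). Capg, which caps actin filaments, S100a10, the galectin gene Lgals1 and the vimentin gene Vim had log2 fold changes of -2.47, -2.31, -2.25 and -1.75. Pfn1 and Tmsb4x, which bind actin monomers, were higher (log2 0.57 and 0.32). Of 75 oxidative phosphorylation genes 25 were lower and 1 higher. Without cells holding a platelet, B or T cell UMI 4 were lower and 1 higher. In the window of 2000 to 4000 UMIs 1 was lower and 0 higher. Of 83 cytoplasmic ribosomal protein genes 15 were lower and 5 higher, against 1 and 2 in that window, and 3 of 12 mitochondrially encoded genes were lower, against 0. The 5 red cell genes were called higher in members (log2 0.93 to 1.41). They ranged widely between samples (Hba-a1 3221 to 35298 CPM in members), and 0 were called by DESeq2. In young sample 2 members were lower than classical monocytes for Hbb-bs (37585 against 41749 CPM), Hbb-bt (5358 against 6774) and Hba-a2 (14201 against 16013). There they were higher for Hba-a1 (17560 against 17380 CPM) and Alas2 (178 against 171). The part of red cell RNA here was not tested.

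**Figure D4:**
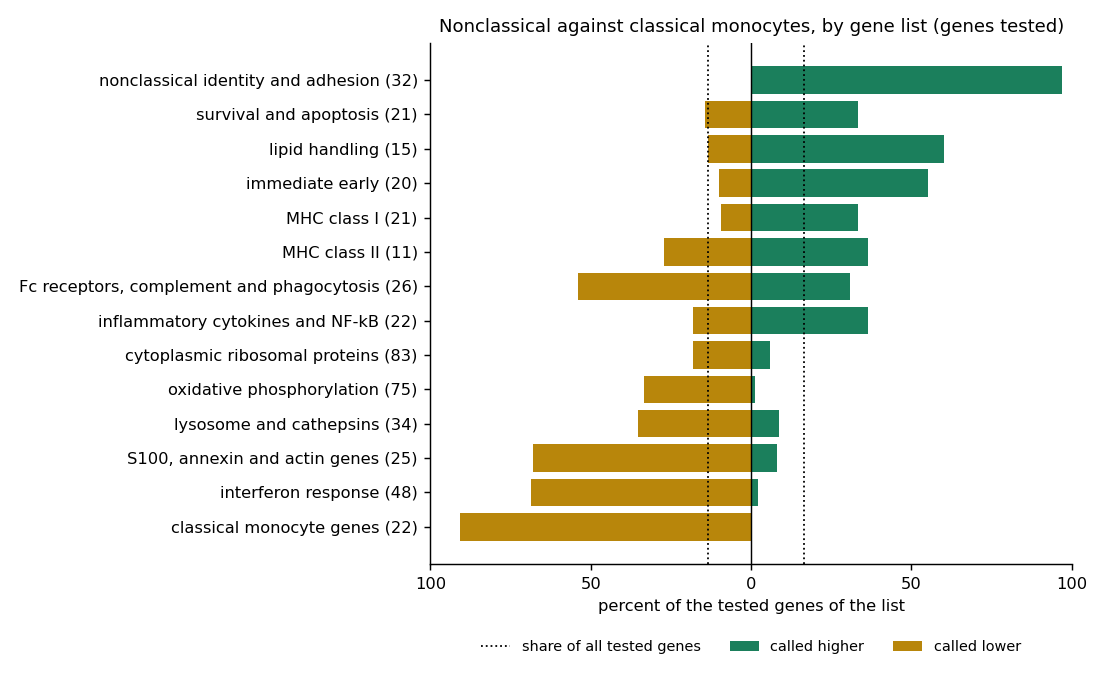
Percent of the tested genes of each list called higher (green, right) or lower (gold, left) in nonclassical against classical monocytes, with the number of genes tested in brackets and dotted lines at the share of all tested genes (16.5% higher, 13.3% lower). The lists for nonclassical identity and for classical monocyte genes lie at opposite ends, and of 48 interferon genes 33 were lower.

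Age was compared within the nonclassical monocytes, with UMIs summed per sample and 2 samples per age. Of 2587 genes with a UMI in at least 10% of members of each age, 22 (0.85%) were called, 18 (0.696%) higher and 4 (0.155%) lower in old members. Both old samples lay above both young samples for 398 genes (15.4%) and below them for 544 (21%). The calls depended on single samples and tools: without young sample 2 there were 0 calls by edgeR (150 genes at an unadjusted p under 0.05), and DESeq2 called 1 gene among all samples. Without members holding a platelet, B or T cell UMI 4 genes were called.

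Hp (chr8:109575128-109579172, minus strand), haptoglobin, the plasma protein that binds free haemoglobin, stood at 237 and 175 CPM in young and at 717 and 602 CPM in old members. The ages did not overlap, and the log2 fold change was 1.77 ± 0.18 SE (edgeR adjusted p = 1.84e-07). Hp was called in 15 of 16 alternatives, with adjusted p from 9.13e-18 to 0.192, and was the 1 gene that DESeq2 called. After thinning to 1000 UMIs per cell, 19.2% and 13.9% of young and 41.6% and 37.7% of old members had an Hp UMI. In B cells, which do not make it, 0.471% did after thinning (median depth before thinning 2246 UMIs, against 2377 in members). That value pools all samples and is not split by age, and the part of other cells' RNA in the rise of Hp was not tested. Hp is a marker of classical monocytes, where it stood at 768 and 609 CPM in young and at 1386 and 1535 CPM in old samples. The age effect of the 2 subsets did not differ past the threshold (difference of log2 fold changes 0.69 ± 0.20 SE, adjusted p = 0.166).

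Hmox1, haem oxygenase, which breaks down haem, stood at 47.4 and 118 CPM in young and 229 and 186 CPM in old members (log2 1.24 ± 0.29 SE, edgeR adjusted p = 0.0355, called in 4 of 16 alternatives). Its log2 fold change was 0.87 without young sample 1 and 2.18 without young sample 2. Txn1, thioredoxin, stood at 322 and 316 CPM against 552 and 729 CPM (log2 1.01 ± 0.17 SE, adjusted p = 0.00229, 11 of 16 alternatives). Prdx1 and Prdx2, peroxiredoxins, were also called (log2 0.51 and 0.96). Hbb-bt, a haemoglobin chain, stood at 1112 and 5358 CPM in young and 5194 and 13170 CPM in old members, so that the ages overlapped. It was called (log2 1.52), with log2 fold changes of 0.68 without old sample 2, 0.81 without young sample 1, 3.08 without young sample 2, 0.17 without cells over 10% haemoglobin and -0.50 in cells of 2000 to 4000 UMIs. Prdx2 and Mkrn1 are abundant in haemoglobin-rich cells without Lyz2, at 701 and 2976 CPM there (143 cells) against 261 and 298 CPM in members. Hp and Hmox1 stood at 10.2 and 3.40 CPM in those cells. Without the 21 members in which haemoglobin genes took over 10% of the UMIs, 4 genes were called.

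Acp5, an acid phosphatase of macrophages and osteoclasts, stood at 31.6 and 57.5 CPM in young and 143 and 161 CPM in old members (log2 1.66 ± 0.33 SE, edgeR adjusted p = 0.00962). Ly6a, the interferon-inducible surface protein Sca-1, stood at 63.3 and 71.8 CPM against 240 and 142 CPM (log2 1.58, adjusted p = 0.00627). Both were called in 11 of 16 alternatives, and both were higher in B cells (197 and 706 CPM) and in haemoglobin-rich cells (184 and 548 CPM) than in members (103 and 145 CPM). Ifi27l2a, induced by interferon, stood at 954 and 1672 CPM against 3230 and 2054 CPM, with old sample 1 highest (log2 1.02, adjusted p = 0.00302, and log2 0.67 without that sample). Wfdc17, a protease inhibitor-like gene of activated monocytes, stood at 369 and 417 CPM against 545 and 1272 CPM, with old sample 2 highest (log2 1.16, adjusted p = 0.00962, called in 8 of 16 alternatives). Without old sample 2 its log2 fold change was 0.47 and was not called. Pltp (100 and 66.1 against 158 and 215 CPM), Pirb, an inhibitory receptor for MHC class I (94.9 and 152 against 244 and 264 CPM), and Atpif1, an inhibitor of the mitochondrial ATP synthase (79.1 and 115 against 211 and 220 CPM), were called with adjusted p of 0.0402, 0.0404 and 0.0374, in 5, 3 and 3 of 16 alternatives. Atpif1 stood at 211 CPM in haemoglobin-rich cells and 167 CPM in B cells against 163 CPM in members, and its log2 fold change was 0.56 after thinning, against 1.11 before. The other genes called higher were Mkrn1, Cd300ld, Cd302, Gda and the pore-forming Mpeg1, with log2 fold changes of 0.78 to 0.97. That of Cd300ld was 0.68 without young sample 1 and 1.37 without young sample 2.

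The 4 genes that fell were Serpinb10, an intracellular protease inhibitor (chr1:107529003-107549271, plus strand), at 174 and 241 CPM in young and 99.6 and 63.6 CPM in old members (log2 -1.27 ± 0.27 SE, adjusted p = 0.0236, 7 of 16 alternatives), Hpgd, which inactivates prostaglandins (443 and 307 against 181 and 225 CPM, log2 -0.85), the dynein light chain gene Dynll1 (822 and 850 against 588 and 411 CPM, log2 -0.68) and the RNA helicase gene Ddx5 (838 and 747 against 575 and 386 CPM, log2 -0.64). Old sample 2 was the lowest sample for all but Hpgd. Serpinb10 and Hpgd stood at 0.127 and 0.636 CPM in B cells and at 0 CPM in haemoglobin-rich cells. Ddx5 was higher in both (909 and 844 CPM) than in members (635 CPM), and Dynll1 stood at 492 and 412 CPM against 672 CPM. The log2 fold change of Ddx5 was -0.97 without old sample 1 and -0.44 without old sample 2.

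**Figure D5:**
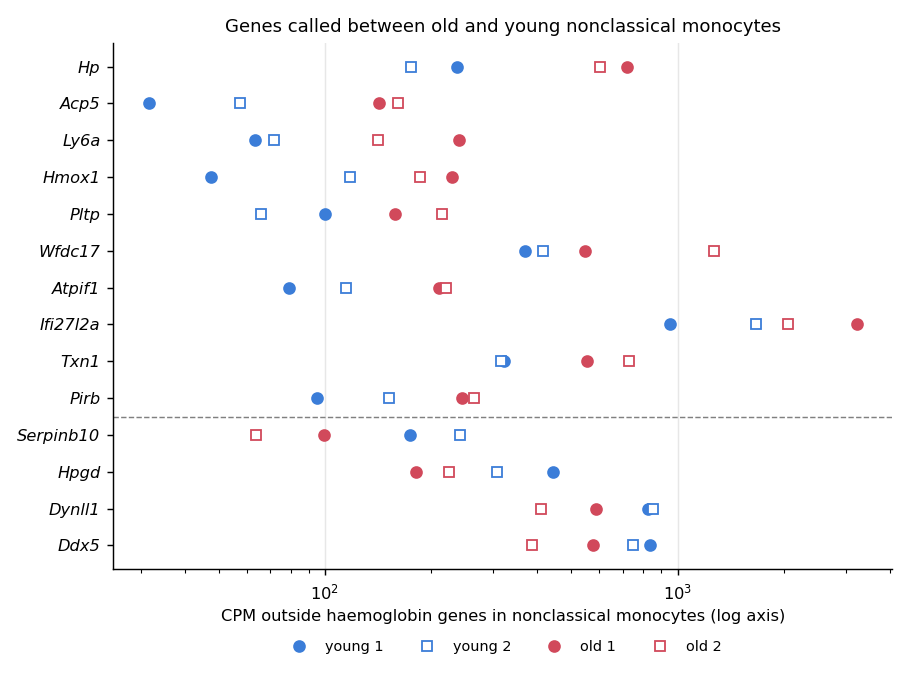
Level in nonclassical monocytes, in CPM on a log axis, of the 10 genes with the largest rise (above the dashed line) and the 4 genes that fell (below it) among those called between ages with no overlap, with 1 point per sample (blue young, red old, circle sample 1, square sample 2). Hp lies at 237 and 175 CPM in young and 717 and 602 CPM in old samples.

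Most gene groups gave 0 calls with age. Over all 2587 tested genes 22 (0.85%) were called, so 0 calls in a list of this length says little about the list. None of the 30 tested nonclassical identity and adhesion genes was called (median log2 -0.0049, range -0.49 to 0.58). Nr4a1 stood at 548 and 405 CPM in young and 446 and 367 CPM in old members, and Cx3cr1 at 290 and 259 against 299 and 264 CPM, so that the ages overlapped for both. Of the 12 tested classical monocyte genes, 2 (Hp and Wfdc17) were called higher and the median log2 was 0.35, with both old samples above both young samples for 7. Of 24 interferon genes 1, Ifi27l2a, was called (median log2 0.05), and 0 of 10 class II genes, 0 of 20 class I genes and 0 of 17 inflammatory genes were. Of 83 ribosomal protein genes 0 were called (median log2 -0.04), while both old samples lay below both young samples for 33 and above for 4, against 21% and 15.4% of all tested genes. Of 73 oxidative phosphorylation genes 0 were called (median log2 0.13), with 26 above and 7 below, and of 30 lysosomal genes 0 were called (median log2 0.22), with 14 above and 1 below.

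The age effect was set against that in classical monocytes in 1 fit over both subsets with the sample as a block. Of 4222 genes 9 (0.213%) differed, 6 (0.142%) with the higher and 3 (0.0711%) with the lower old-over-young ratio in nonclassical monocytes. Apoe stood at 6315 and 4876 CPM in young and 4126 and 5218 CPM in old members, and at 4734 and 3149 against 1310 and 2068 CPM in classical monocytes, so that the ages overlapped in the first and not in the second (difference of log2 fold changes 1.03 ± 0.12 SE, adjusted p = 4.25e-08). Lst1, a small membrane protein of leukocytes, stood at 1856 and 1833 against 2304 and 2294 CPM in members and at 1233 and 1352 against 999 and 959 CPM in classical monocytes (difference 0.78 ± 0.14 SE, adjusted p = 0.000678). Actb, beta-actin, had a difference of -0.64 ± 0.10 SE (adjusted p = 7.34e-05). Classical monocytes numbered 30 and 32 cells in the young samples, and without the block 0 genes were called (220 at an unadjusted p under 0.05).

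Cd209a, a lectin known from dendritic cells, marked the third subset. Of 5043 genes 796 (15.8%) were called between them and the nonclassical monocytes, 549 (10.9%) higher and 247 (4.9%) lower in nonclassical monocytes. The split depended on scaling, with 418 higher and 325 lower under DESeq2 size factors, which moved the median log2 over all genes from 0.06 to -0.08, and this subset held 40 cells. Cd36 had 411 UMIs in members and 0 in Cd209a-positive cells, at least 23.4-fold higher (3 UMIs over the group as the floor). Fabp4, Trem3, Dusp16 and Rpl3l likewise had 0 UMIs there, at least 20.0-, 13-, 12.2- and 11.2-fold. Of the 32 nonclassical identity genes 30 were higher and 1 lower, and all 12 markers outside the rule were higher. Lower in members were Flt3, the growth factor receptor of dendritic cells (2 UMIs in members and 23 in Cd209a-positive cells, 67.2-fold, exact interval 16.6 to 588), Cd7, Cd209d, Upb1 and Klrd1. Cd7 stood at 0, 5.75, 11.3 and 0 CPM in members and at 58.1, 709, 360.0 and 415 CPM in Cd209a-positive cells. Of 13 class II genes 8 were lower and 1 higher (median log2 -2.02). H2-Aa stood at 432, 960, 641 and 1110 CPM in members and at 2994, 7558, 4118 and 10450 CPM in Cd209a-positive cells.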

How the data were processed

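Peripheral blood cells of 2 young and 2 old pooled samples were profiled by 10x Chromium single-cell RNA-seq. Cell Ranger with mm10 gave the UMI counts, the authors aggregated the samples of each age, and cells were filtered in Seurat 2.3.0 (over 500 and under 4000 genes, under 10% mitochondrial reads), and the deposited counts are whole UMI counts per gene and cell. Whether the aggregation equalised read depth is not stated. The sample of each cell came from the deposited cell list. No doublet caller was run, and the rule's limits on B cell, T cell and macrophage transcripts stood in for one.

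UMIs were summed per sample and subset and tested with edgeR 4.0.16 (quasi-likelihood, TMM, Benjamini-Hochberg over all tested genes, threshold 0.05) for genes with a UMI in at least 10% of the cells of each age (age) or of either subset (subsets). Fold changes follow TMM, and SE is the log2 fold change over the square root of F. DESeq2 1.42.0, other scalings and filters, a strict rule, thinning and left-out samples were alternatives. The alternatives of 2000 to 4000 UMIs and of low haemoglobin were chosen after seeing the data. Percentages had exact permutation tests. The script was tested on simulated counts with known folds and a common dispersion. Of 100 genes changed 2-fold and 100 changed 4-fold, the age test called 60 and 96. The test between nonclassical and classical monocytes called 73 and 97. The test of the age effect between subsets called 18 and 50, so a gene not called there can still differ. Positions are of GENCODE vM21 (GRCm38), and promoters of RefSeq. The other motifs searched were AAAGGTCA, TGACNNNGC, TTGCNNAA, CCACACCC, ATTTGCAT, the NF-kB consensus, TTNCNNGAA, AGGAAGTG and ACAGGAAG, also on both strands.

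Genes named were the 10 called genes per direction that changed most on the log2 scale with the samples apart (5 for Cd209a-positive cells and for the age effect between subsets, at least 50 CPM between subsets), up to 4 members of each list, all markers and the rule's genes. Others, such as Selplg, Irf1, Abcg1 and the remaining age calls, were chosen after their values were seen. The members and lists were chosen with earlier results of these data known. The values of 1 gene that met this rule are not reported here.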

Additional observations from a re-analysis of the deposited data

Results flagged for a closer look

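The old-over-young change differed between nonclassical and classical monocytes for 9 genes, by the test of the difference itself. For 8 of them the differences of log2 fold changes (nonclassical minus classical) were 1.03 for Apoe, 0.78 for Lst1, 0.51 for Malat1, 3.32 for Batf3, 1.21 for Hbb-bt, 0.86 for Hbb-bs, -0.64 for Actb and -3.94 for Trem3. Batf3, a transcription factor of dendritic cells, averaged 9.58 CPM in young and 30.7 CPM in old nonclassical and 106 and 39.5 CPM in classical monocytes. In young members 1 UMI equals 5.27 CPM in sample 1 and 2.87 CPM in sample 2. The size of the Batf3 difference therefore rests on few UMIs. Trem3, a receptor of myeloid cells, averaged 198 and 195 CPM in nonclassical and 3.71 and 70.6 CPM in classical monocytes. The young classical value is 1 UMI against 125 in old ones, a ratio of 17.2 (95% exact interval 3.04 to 686, counting error only), so the size of the Trem3 difference rests on 1 UMI. Malat1, a nuclear RNA, averaged 21296 and 23125 CPM in nonclassical and 9798 and 7769 CPM in classical monocytes. The haemoglobin genes vary with red cell RNA between samples, whose part in their differences was not tested.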

How the results depend on the processing

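Age calls within nonclassical monocytes (22) fell to 1 with DESeq2, 7 with DESeq2 size factors, 5 in cells of 2000 to 4000 UMIs, 10 with edgeR's own expression filter, 2 under a strict rule (0 Ly6c2 UMIs and at least 2 of the 4 genes), 3 after thinning, 4 without cells over 10% haemoglobin and 4 without cells with a platelet, B or T cell UMI. They rose to 42 without a filter, and leaving out 1 sample gave 0 to 26. Calls against classical monocytes (1258) were 794 with DESeq2, 449 in the depth window, 619 after thinning and 673 without cells with other cells' UMIs, and 768 (without old sample 1) to 1196 with a sample left out. Calls against Cd209a-positive cells (796) were 324 in the depth window, 507 with the expression filter and 447 after thinning, and 570 to 710 with a sample left out. The share of higher calls there, 69.0%, was 51.0% with DESeq2, 56.3% with its size factors, 53.6% with the expression filter, 95.1% in the depth window, 91.9% after thinning and 82.8% without cells with other cells' UMIs. Calls on the age effect between subsets (9) were 0 with DESeq2 (32 at an unadjusted p under 0.05), 2 in the depth window, 3 under the strict rule, 1 after thinning and 4 with low haemoglobin, and 5 to 24 with a sample left out. In the depth window Hbb-bt turned to -0.50 with age, and Hbb-bs and Hbb-bt to -0.76 and -1.02 in the difference between subsets, where Hbb-bt ranged from -0.33 (without young sample 2) to 2.02 with a sample left out. The age difference in the share of all cells was -0.00642 points with other cells' UMIs excluded from members but not from the denominator. It was 3.67 points with B or T cell UMIs excluded from both. With a sample left out it lay between -0.111 (without young sample 1) and 1.57 points. The cause of these changes was not tested.

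Sample numbers do not mark shared mice. The replicate block gave 33 age calls, among them all 22, and same-numbered samples deviated with a correlation of 0.0378 over 2587 genes. Between subsets, which share samples, 1164 and 728 calls were made with no replicate block, and 0 for the age effect between subsets. Of 1180 values of 80 genes named between nonclassical and classical monocytes under alternatives, 1101 kept their direction and call, 79 lost the call and 0 reversed. Of 351 values of the 22 age genes 134 kept it, 216 lost it and 1 reversed, and of 133 values of the 9 genes of the age effect between subsets 64 kept it, 66 lost it and 3 reversed.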
